A study of Mus musculus with 27 samples.

Results

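The comparison described here is between non-irradiated mouse thyroid gland organoids (mTGOs) at day 11 and at day 5 of culture. It was selected by the day and dose of each library, which gave 6 of the 27 libraries of the series, 3 at each day. The thyroid glands came from C57BL/6 mice of 8 to 12 weeks, which the study's methods describe as female, and the cells were grown as organoids in Matrigel with EGF, FGF2, the ROCK inhibitor Y27632 and B27. None of these 6 libraries came from irradiated organoids, and the sources give the same medium, matrix and additives for both days. The column names carry the culture identifiers mTG11, mTG12 and mTG14, 1 library per culture and day, and in every list of 3 values below the cultures stand in that order. The day 7 libraries of the same cultures shared the fit and are used to describe the course between the compared days. The 3 libraries of day 5 held 2900966, 2630564 and 3507863 counts and those of day 11 held 4200268, 3729869 and 3636887, so that 3 counts in a library of these groups correspond to 0.714 to 1.14 CPM. The labels number mice, the columns name cultures and neither source ties them together, so that the p-values measure the spread between these libraries. Organoids were sequenced whole, so that fewer cells of a type and less RNA of a gene per cell cannot be told apart in any value given here. Expression is given as counts scaled to a library total of 1000000 (CPM), which for these 3′ tag libraries is not divided by gene length, with the log2 fold change fitted by edgeR for day 11 over day 5, its standard error (SE) and the p-value adjusted over all tested genes.

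Stratified squamous epithelia renew from a basal layer that carries KRT5 and KRT14 and is anchored to the basement membrane by hemidesmosomes, while the layers above exchange these keratins for others and finally cross-link a cornified envelope. Simple and glandular epithelia carry KRT7, KRT8, KRT18 and KRT19 instead, seal their apical side with claudin-based tight junctions, and in mucosal surfaces of the airway and gut include secretory and multiciliated cells. Thyroid follicular cells belong to the simple epithelia and make thyroglobulin and carry the iodide transporter.

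The defining transcripts of follicular cells were scarce at both days. Thyroglobulin (Tg) stood at 4.48, 16.7 and 4.28 CPM at day 5 and 0.238, 6.17 and 0.55 at day 11, and the groups overlapped (log2 fold change of -1.70, SE 0.78, adjusted p = 0.102; with the replicate block the log2 fold change was -1.83 and the adjusted p 0.00377, with adjusted p of 0.000112 to 0.861 over all alternatives). Slc5a5, Slc26a7, Tshr, Iyd and Dio1, which serve iodide handling and hormone synthesis, did not reach the 10 counts over 9 libraries needed for a test, and Tshr had no counts at either day.

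Of 18442 genes tested, 3921 were higher at day 11, 21.3% of all tested, and 3700 were lower, 20.1% (edgeR quasi-likelihood test, adjusted p under 0.05). A change of more than 2 on the log2 scale, that is over 4-fold, was found among them for 1003 higher and 726 lower genes. Of the genes called higher, 3722 were higher at day 11 in all 3 cultures, and of those called lower 3692 were lower in all 3. The libraries of the compared days did not overlap for 3473 of the genes called higher and 3662 of those called lower. Without the TMM scaling factors the split turned towards falls, with 3049 higher and 4589 lower genes and a median log2 fold change of all genes of -0.083 instead of 0.06. The shares of 21.3% and 20.1% are the background against which the counts of every list below are to be read.

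**Figure D1:**
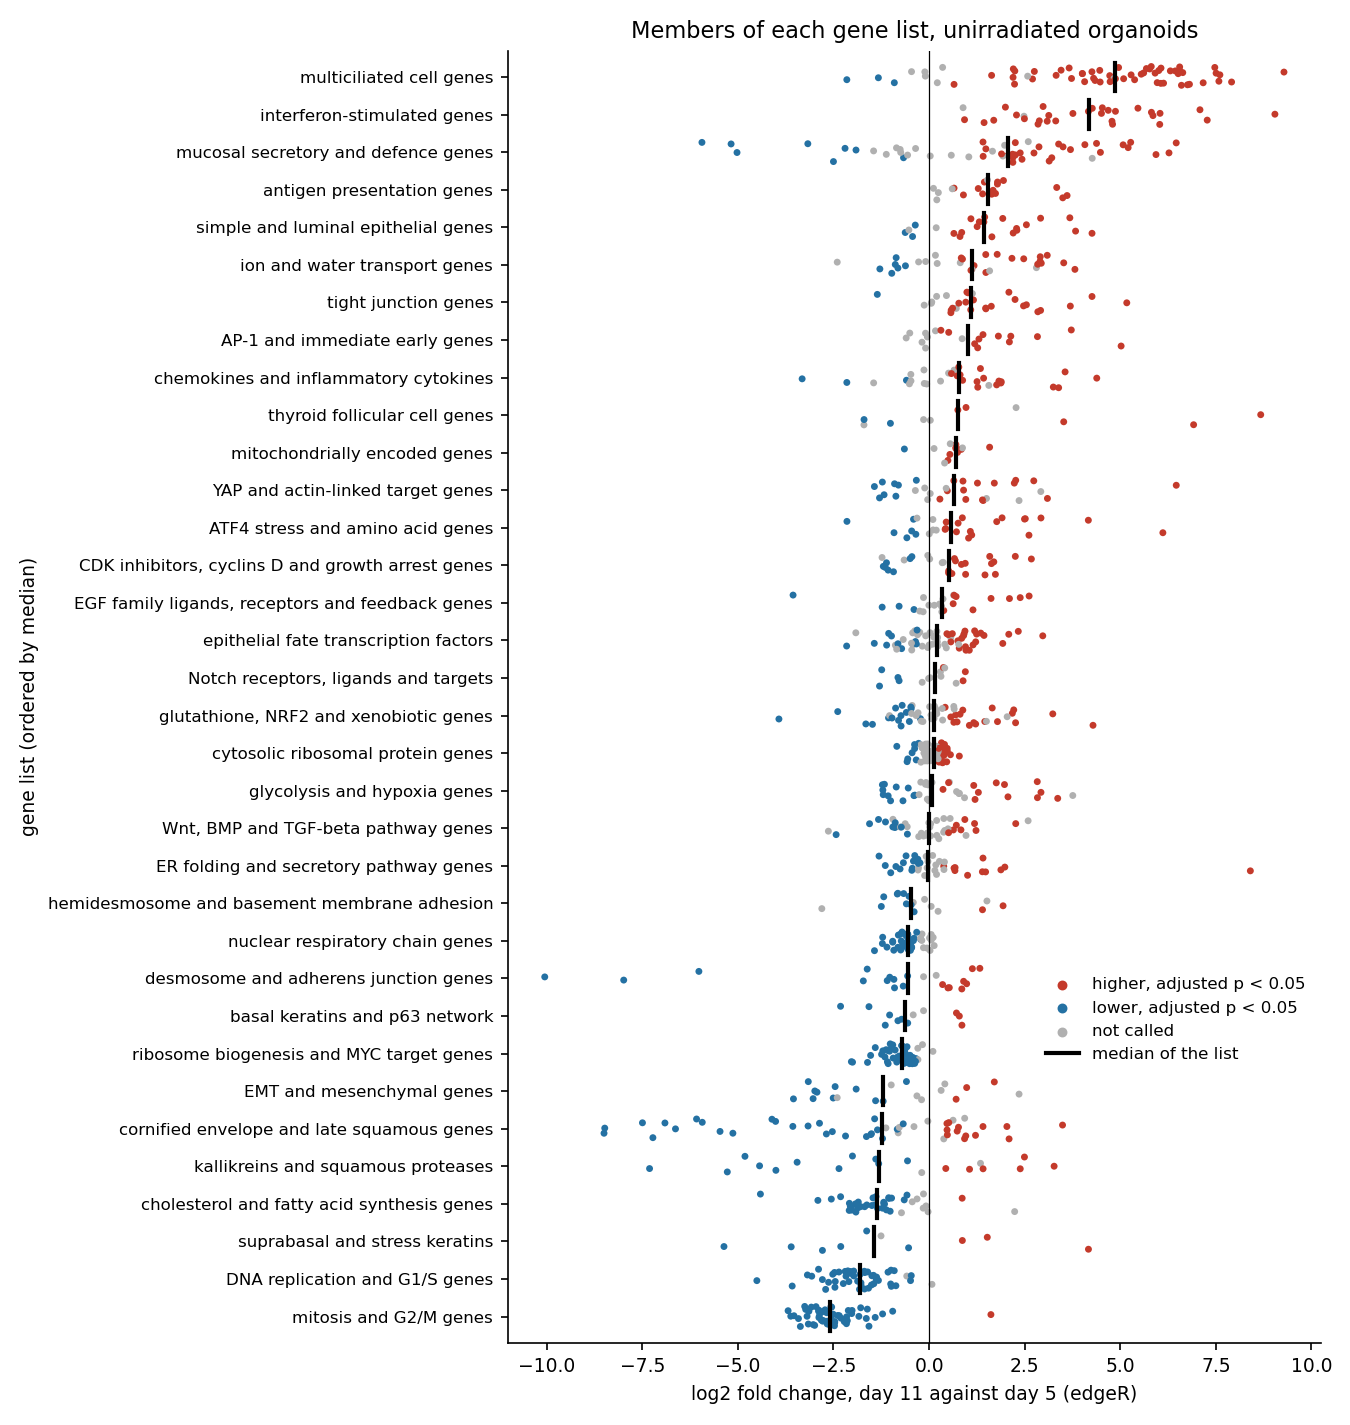
Log2 fold change at day 11 against day 5 for each tested member of 34 gene lists (x axis, edgeR), with the lists on the y axis in order of their median (black bar). Red and blue points passed an adjusted p of 0.05 and grey points did not. The mitosis list had a median of -2.60 and the multiciliated list 4.86, while desmosomal, cornified and secretory lists spread to both sides.

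The keratins of basal cells, except Krt15, fell. Of 12 tested genes of the basal keratin and p63 list, 7 fell and 3 rose, and the summed level of the list went down in every culture, with 17988, 20034 and 20539 CPM at day 5 and 6522, 8250 and 6870 at day 11. Krt14, the type I keratin of basal cells, lies on chromosome 11 at 100093988 to 100098490, minus strand (GRCm39). It was at 5839, 7178 and 7530 CPM at day 5, 3427, 4987 and 3858 at day 7 and 810.4, 1810 and 1116 at day 11 (log2 fold change of -2.31, SE 0.24, adjusted p = 1.2e-05). Its partner Krt5 was at 5556, 6433 and 6328 CPM at day 5 and 2182, 2947 and 2355 at day 11 (log2 fold change of -1.15, SE 0.11, adjusted p = 4.48e-06), and the 3 libraries of day 5 were above those of day 11 for both genes. Trp63, the transcription factor that maintains basal cells, fell from 136 ± 20.4 to 74.9 ± 18.1 CPM (SD, n = 3; log2 fold change of -0.72, SE 0.15, adjusted p = 0.00205). Krt17, a keratin of activated and appendage epithelium, reached its final level early, with 2934, 2653 and 2965 CPM at day 5, 805, 806 and 802 at day 7 and 912, 862 and 829.8 at day 11. Krt15, a keratin of less activated basal cells, went the other way and rose from 530.2 ± 133 to 786 ± 65.2 CPM (SD, n = 3), and so did Ngfr and Igfbp3.

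The anchoring structures of basal cells fell in part. Among 17 genes of hemidesmosome and basement membrane adhesion 9 fell and 2 rose, with a median log2 fold change of -0.47. The integrin subunit Itga6 was at 647, 817 and 728 CPM at day 5 and 250, 308 and 275 at day 11 (log2 fold change of -1.25, SE 0.12, adjusted p = 6.46e-06). Lamb3, a chain of laminin-332, fell from 258 ± 28.6 to 103 ± 14 CPM (SD, n = 3). Lama5, the chain of laminin-511, rose from 23.7 ± 3.39 to 56.5 ± 9.8 CPM and Col4a5, a basement membrane collagen, from 4.93 ± 1.04 to 17.2 ± 3.64 CPM (SD, n = 3). Itgb4, the partner of Itga6 in hemidesmosomes, was at 758, 1099 and 855 CPM at day 5 and 512, 778 and 551 at day 11 and overlapped between days (adjusted p = 0.0666), although it passed with the replicate block (log2 fold change -0.42, adjusted p = 0.000513, range over the alternatives 0.000401 to 0.737). The number of falling members was 5 with a fibroblast score as covariate (the mean scaled log2 level of fibroblast markers in each library) and also 5 without the day 11 library of mTG14, and Col17a1 lost its call when either the day 11 library of mTG11 or mTG14 or the day 5 library of mTG14 was left out.

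The suprabasal keratins separated into large falls and a few rises. Of 10 tested, 6 fell and 3 rose. Krt16, the keratin of wounded and hyperproliferative epidermis, was at 2217, 2963 and 3164 CPM at day 5, 764, 877 and 719.7 at day 7 and 30.4, 104 and 50 at day 11 (log2 fold change of -5.36, SE 0.34, adjusted p = 2.81e-07), and no library of a later day reached the lowest value of an earlier day. Krt6b stood at 2670, 3019 and 3816 CPM at day 5 and 185, 245 and 274 at day 11. Krt6a stood at 5763, 6533 and 7371 CPM at day 5 and 1837, 1863 and 2023 at day 11, and the log2 fold changes were -3.61 and -1.63. These are near-identical genes whose counts were fractional in most libraries, so the split between them is uncertain. Krt10, a keratin of the cornifying epidermis, fell from 40.1 ± 13.9 to 7.15 ± 2.29 CPM, and Krt13, the keratin of non-cornifying mucosa, fell from 3883 ± 665 to 2405 ± 523 CPM (SD, n = 3; adjusted p = 0.0404). Its adjusted p ranged over 2.94e-07 to 0.328 with the alternatives. The call was lost with DESeq2, with the fibroblast score, and without mTG11 or mTG12 at day 11 or mTG12 or mTG14 at day 5. Krt23, a keratin described in glandular epithelia, rose from 22.4, 10.6 and 14 CPM to 379, 152 and 237 (log2 fold change of 4.17, SE 0.37, adjusted p = 3e-06).

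Genes of the cornified envelope and late squamous differentiation lost members and kept others. Of 47 tested, 26 fell and 13 rose, and the median log2 fold change was -1.22. Sprr1b, a small proline-rich precursor of the envelope, lies on chromosome 3 at 92344116 to 92346096, minus strand, and was at 571, 795 and 759 CPM at day 5, 146, 121 and 124 at day 7 and 1.43, 1.07 and 2.75 at day 11 (log2 fold change of -8.50, SE 0.22, adjusted p = 9.5e-10). Rptn, a filament-associated protein, fell from 61, 60.8 and 66.1 CPM to 0, 0.804 and 0.275. Lor, the main component of the epidermal envelope, went from 116 to 1.03 CPM, Krtdap from 1494 to 22.3 CPM and the protease inhibitor gene Spink5 from 3630 to 277 CPM, all of them called. The late cornified envelope genes, a family of near-identical genes, followed. Lce3d, Lce3e, Lce3f, Lce1a1, Lce1a2, Lce1e and Lce1f were between 10.9 CPM (Lce1f) and 106 CPM (Lce3f) on average at day 5 and at or below 0.476 CPM in every library of day 11. Their reads were often split between copies.

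The summed level of the list nonetheless stayed close to its start. It was 26461, 29441 and 28800 CPM at day 5, 40061, 36137 and 41858 at day 7 and 26615, 25398 and 25666 at day 11, so that days 5 and 11 overlapped and day 7 lay above both. The 3 near-identical copies Sprr2a1, Sprr2a2 and Sprr2a3 share reads and are given by the first of them. Sprr2a1 was at 4809, 5193 and 4620 CPM at day 5, 10973, 9807 and 11347 at day 7 and 6393, 5896 and 5981 at day 11, a rise at day 11 of 0.47 on the log2 scale. Ecm1, an extracellular matrix protein of squamous and secretory epithelium, was at 352, 692 and 452 CPM at day 5, 1269, 1895 and 1604 at day 7 and 5295, 4910 and 4928 at day 11 (log2 fold change of 3.49, SE 0.22, adjusted p = 2.62e-07). The cornulin gene Crnn, typical of esophageal and oral mucosa, rose from 19.2 to 71.3 CPM. All 13 rises and 26 falls of the list had the same direction in all 3 cultures, as had nearly all called genes (3722 of 3921 higher and 3692 of 3700 lower).

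Desmosomal genes changed in both directions. Dsg1b, a desmosomal cadherin of the upper squamous layers, was at 134, 134 and 155 CPM at day 5, 38.7, 27.6 and 35.2 at day 7 and 0, 0 and 0.275 at day 11. This was the largest fitted fall among called genes with a mean of at least 10 CPM at day 5 and no overlap, predicted gene models left out. A single count remained at day 11, which puts the ratio of day 5 over day 11 at 1650 (exact 95% interval 295 to 65000). Dsg1a, its neighbouring copy, went from 33.5 to 0.0894 CPM, and Dsc1 from 14.4 to 0.159 CPM. Desmoplakin (Dsp), which links desmosomes to keratins in all epithelia, fell from 1066 ± 33.2 to 314 ± 103 CPM (SD, n = 3; log2 fold change of -1.62, SE 0.20, adjusted p = 5.19e-05), and Dsc3 and Jup fell too. Dsg2 and Pkp2, the forms found in simple epithelia, rose from 26.7 to 52.9 CPM and from 6.43 to 11.5 CPM. In total 11 of 21 genes of desmosomes and adherens junctions fell and 8 rose. Cdh1, which encodes E-cadherin, was at 314, 321 and 316 CPM at day 5 and 317, 359 and 304 at day 11 and overlapped (adjusted p = 0.0803).

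Kallikreins, the serine proteases that cut desmosomes in the outer epidermis, fell. Klk6 to Klk14 were all called lower, which is 9 of 9 tested members, and Klk5 was too low to test. Klk10 was at 464, 597 and 590 CPM at day 5 and 11.7, 20.1 and 21.4 at day 11 (log2 fold change of -4.82, SE 0.30, adjusted p = 2.6e-07). Klk13 was at 189, 204 and 239 CPM at day 5 and 6.67, 6.17 and 13.6 at day 11 (log2 fold change of -4.43, SE 0.36, adjusted p = 1.71e-06). Klk6 had no counts at day 11 and was at least 23-fold lower there, when the empty group is set to 3 counts over its summed total (0.259 CPM). The membrane-bound proteases Prss8, Prss22 and Prss27 rose, Prss27 from 9.17 to 80.9 CPM. Over the 19 tested genes of the list 11 fell and 6 rose.

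**Figure D2:**
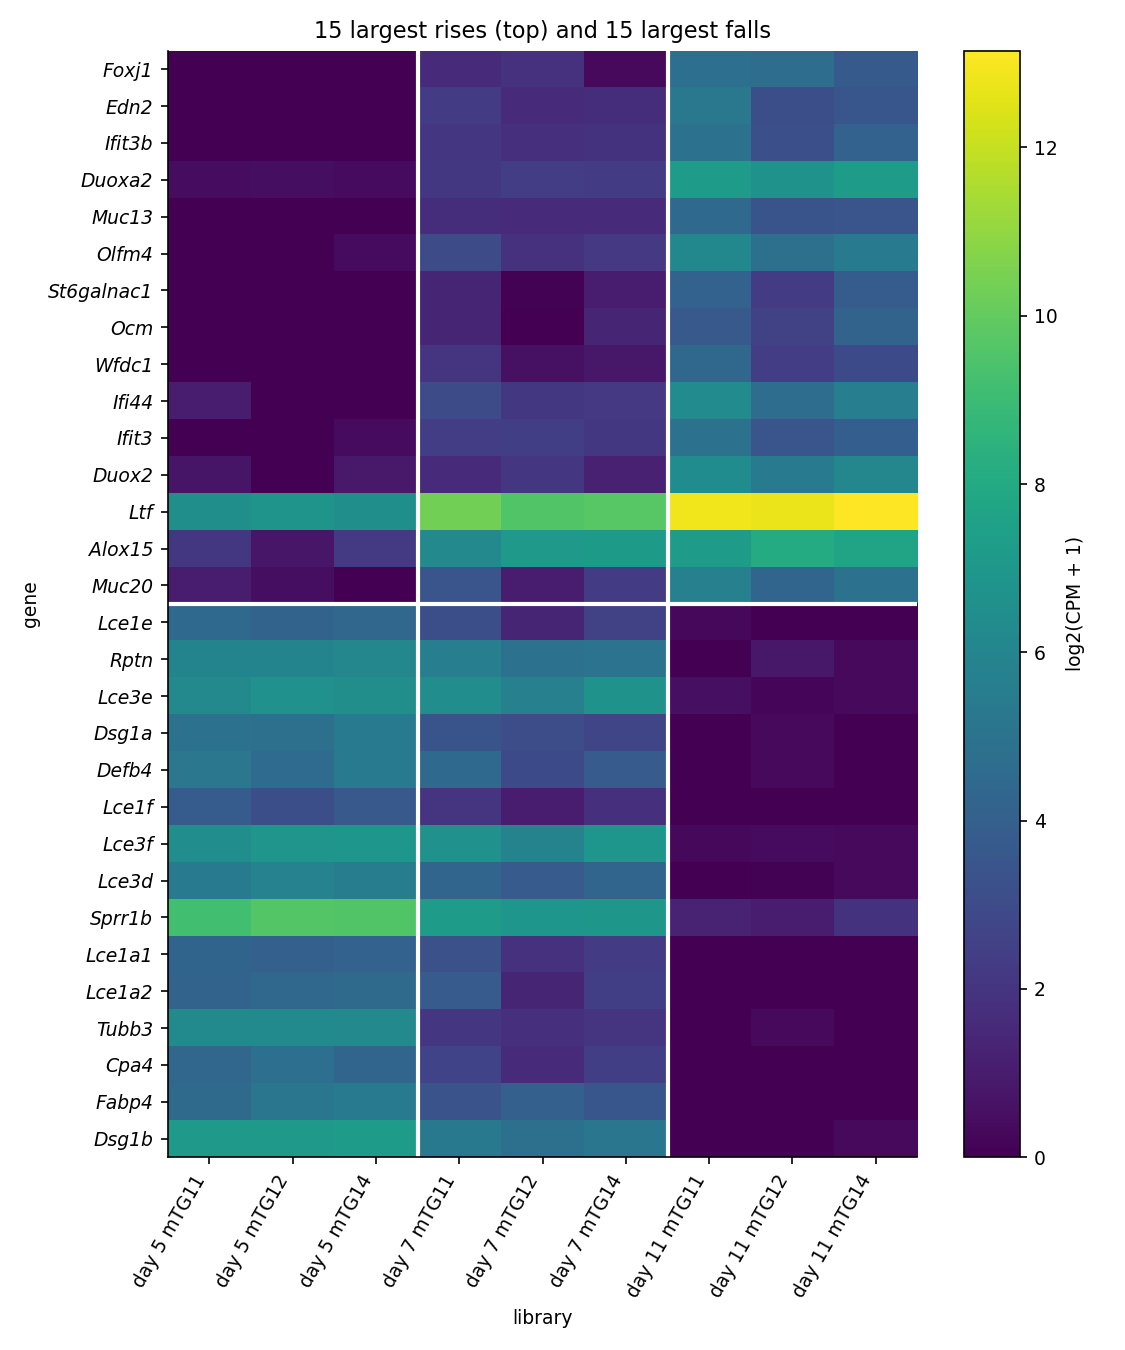
Expression in the 9 non-irradiated libraries (columns, by day and culture) of the 15 genes that rose most (upper rows) and the 15 that fell most between days 5 and 11, as log2(CPM + 1) in colour. Genes were ranked among those called, with at least 10 CPM on the higher day and no overlap, predicted gene models left out. At day 5 the genes that rose were at or near 0 except Ltf and Alox15, at day 11 the genes that fell were at or near 0, and at day 7 most genes of both groups stood between their values at days 5 and 11.

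The largest changes were ordered by fitted fold change among called genes with at least 10 CPM on the higher day and no overlap between the days. Predicted gene models (Gm, LOC, Rik and similar symbols) were left out of this ranking. Among the 15 largest falls were 7 late cornified envelope genes, Sprr1b, Rptn and both Dsg1 copies. The remaining ones were Cpa4, a carboxypeptidase, the beta-defensin gene Defb4, Fabp4, the fatty acid binding protein of adipocytes, and the neuronal tubulin gene Tubb3. Fabp4 was at 22.8, 35.4 and 41.9 CPM at day 5 and 0 in all 3 libraries at day 11. Tubb3 was at 74.6, 74.7 and 70.7 CPM at day 5, 3.26, 2.38 and 3.09 at day 7 and 0, 0.268 and 0 at day 11. Among the 15 largest rises were Muc13 and Muc20, membrane mucins, Olfm4, a secreted glycoprotein of gut and airway epithelium, Alox15, a lipoxygenase, and Edn2, endothelin 2. Alox15 was at 3.46, 0.76 and 3.71 CPM at day 5, 72.3, 137 and 141 at day 7 and 151, 269 and 207 at day 11 (log2 fold change of 6.37, SE 0.43, adjusted p = 3.79e-07). Edn2, with no counts at day 5, was at 37.4, 7.78 and 10.4 CPM at day 11 and at least 58.4-fold higher, taking 3 counts over the summed day 5 libraries (0.332 CPM) as the floor. Olfm4 had 1 count at day 5 and was at 70.2, 27.9 and 43.4 CPM at day 11. St6galnac1, which caps mucin sugars with sialic acid, had under 1 read in all at day 5 and 16.6, 4.05 and 13.4 CPM at day 11. Ocm, which encodes the calcium-binding oncomodulin, and Wfdc1 were absent at day 5 and reached 11.7, 5.09 and 17.1 CPM and 19.8, 4.29 and 6.87 CPM.

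Keratins and junctions of simple epithelia rose. Of 23 tested genes of this list 18 rose and 3 fell, with a median log2 fold change of 1.43, and the sum of the list was 2770, 2681 and 2554 CPM at day 5 and 7976, 6097 and 6380 at day 11. Krt7 lies on chromosome 15 at 101308924 to 101328194, plus strand, and was at 103, 102 and 53.3 CPM at day 5, 663, 377 and 473 at day 7 and 1383, 824 and 1092 at day 11 (log2 fold change of 3.83, SE 0.28, adjusted p = 7.87e-07). Krt18 was at 145, 127 and 94.8 CPM at day 5 and 691, 497 and 439 at day 11, and its partner Krt8 rose from 42.3 ± 12.8 to 103 ± 14.1 CPM (SD, n = 3; log2 fold change of 1.43, SE 0.22, adjusted p = 0.000246). Krt19 did not follow the same course, with 326, 255 and 211 CPM at day 5, 1742, 795 and 1180 at day 7 and 831, 507 and 448 at day 11: day 7 was above day 11 in every culture, and day 11 remained above day 5 (log2 fold change of 1.31, SE 0.28, adjusted p = 0.00227). Epcam, an adhesion molecule of simple epithelia, rose from 225 ± 19.7 to 638 ± 57.2 CPM (SD, n = 3; log2 fold change of 1.64, SE 0.09, adjusted p = 1.27e-07). Muc1, a membrane mucin, was at 6.89, 6.84 and 7.13 CPM at day 5 and 127, 43.4 and 71.8 at day 11, with the highest value in mTG11 and the lowest in mTG12. The splicing regulators Esrp1 and Esrp2 and Rab25 were the 3 members that fell, and 1 member of the list fell without the day 11 library of mTG12.

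Tight junction genes rose with a median log2 fold change of 1.09, in 21 of 29 tested, and 1 fell, Cldn8 from 10.1 to 3.57 CPM, which was not called with the fibroblast score as covariate or without the day 5 library of mTG14. Cldn3, a barrier-forming claudin, was at 19, 12.2 and 8.84 CPM at day 5, 118, 58 and 75.7 at day 7 and 287, 178 and 221 at day 11 (log2 fold change of 4.26, SE 0.31, adjusted p = 6.79e-07). Cldn4, another claudin, was at 63.8, 87.4 and 73.8 CPM at day 5 and 627, 472 and 435 at day 11 (log2 fold change of 2.92, SE 0.15, adjusted p = 7.8e-08). Cldn23 rose from 4.42 to 50.9 CPM, and Pard6b, a polarity protein of the apical complex, from 4.23 to 26.9 CPM. For Cldn3, Cldn4, Cldn23 and Pard6b every day 11 library lay above every day 5 library, as for 3473 of the 3921 genes called higher.

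**Figure D3:**
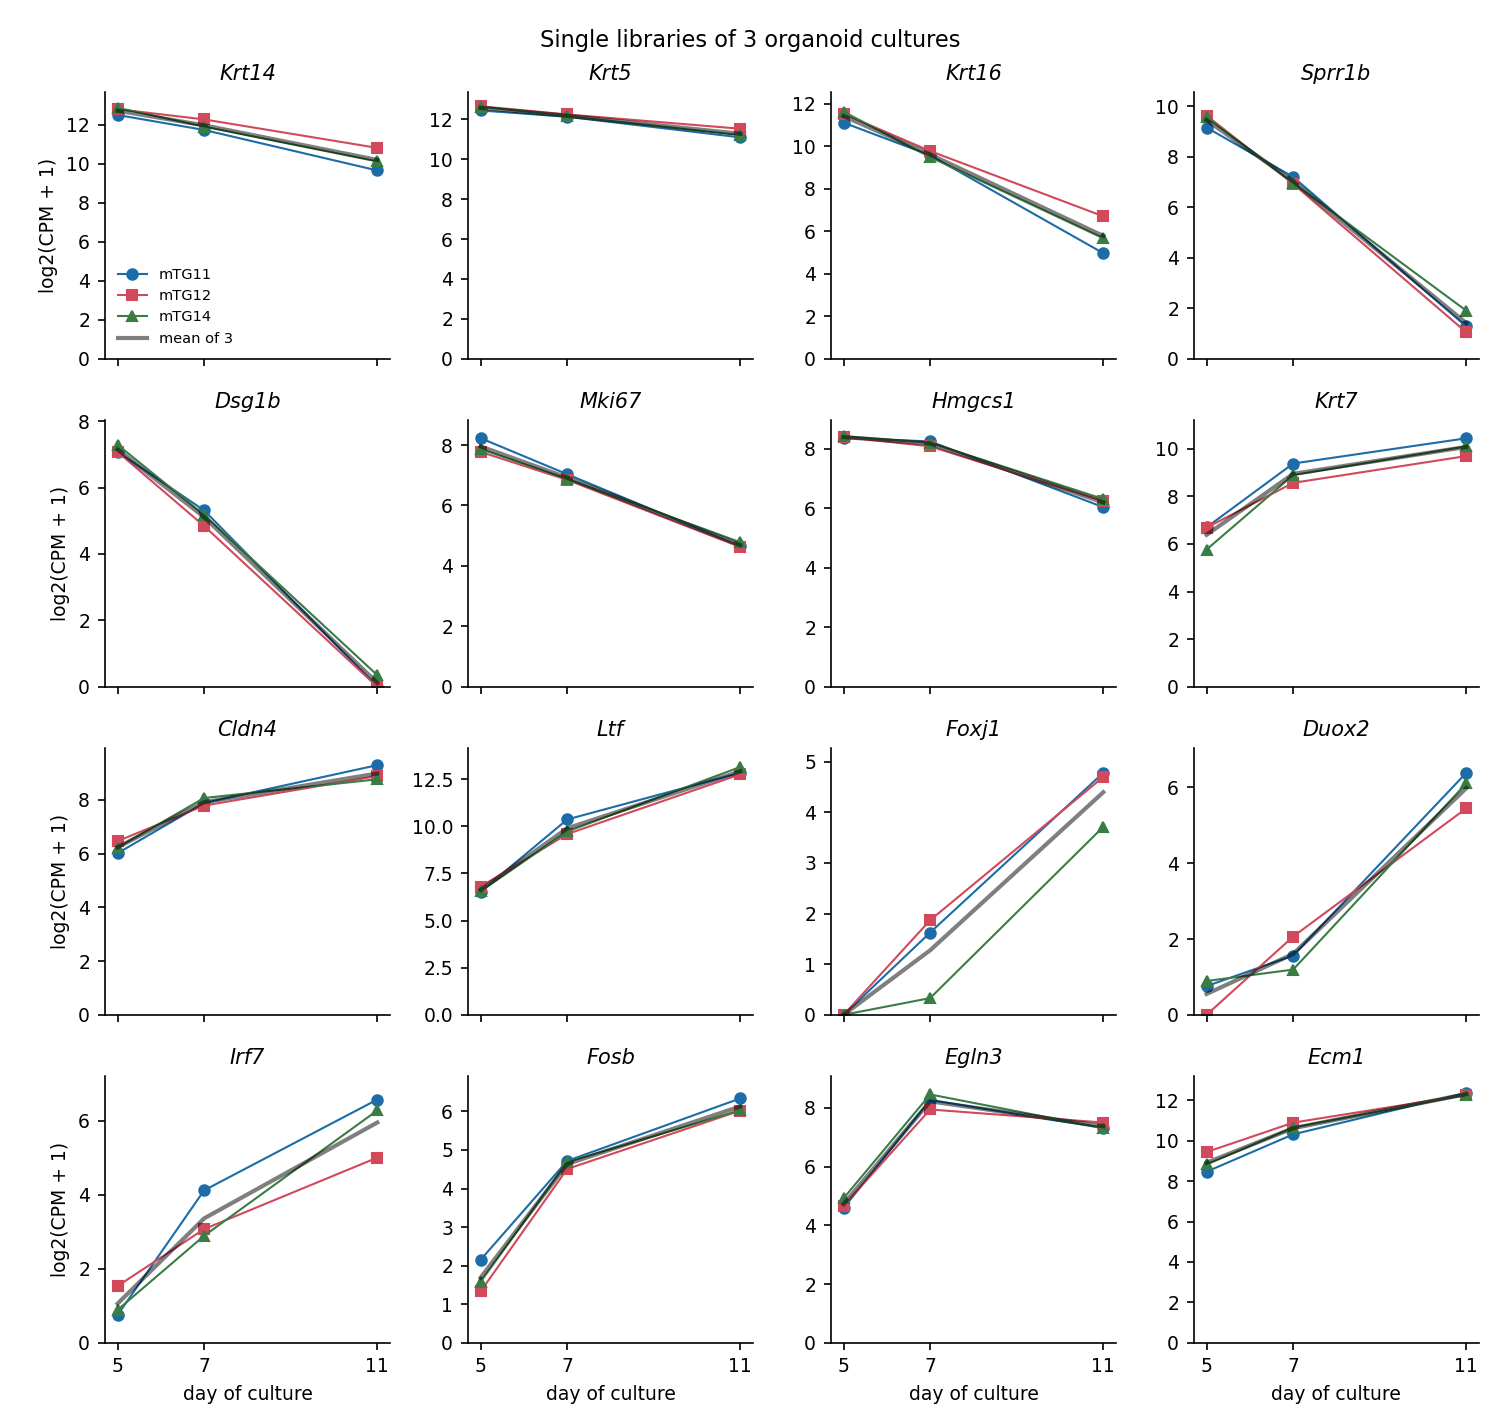
Expression of 16 genes as log2(CPM + 1) (y axis) by day of culture (x axis), 1 point per library, with the 3 cultures joined by lines and their mean in grey. Krt14, Krt5, Krt16, Sprr1b, Dsg1b, Mki67 and Hmgcs1 ended lower at day 11 in all cultures, Krt7, Cldn4, Ltf, Foxj1, Duox2, Irf7, Fosb and Ecm1 higher, and Egln3 was highest at day 7.

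Genes of mucosal secretion and defence rose in sum, with members going both ways. Their sum was 6326, 6133 and 4886 CPM at day 5, 15986, 9496 and 9282 at day 7 and 27295, 20877 and 24351 at day 11, from 0.578% to 2.42% of all counts on average, and 28 of 51 tested genes rose while 8 fell. Ltf and Wfdc2 were the most abundant members over the compared days and carried much of the rise in the sum. Ltf, which encodes the iron-binding antimicrobial lactoferrin, lies on chromosome 9 at 110848339 to 110871835, plus strand. It was at 91.3, 110.2 and 93.1 CPM at day 5, 1318, 770.2 and 847 at day 7 and 7350, 6937 and 9086 at day 11 (log2 fold change of 6.46, SE 0.22, adjusted p = 4.21e-09). Wfdc2, a secreted protease inhibitor of airway glands, rose from 1278, 1346 and 772 to 5678, 4046 and 4233 CPM (log2 fold change of 2.18, SE 0.22, adjusted p = 9.46e-06). Msln rose from 85.8 to 1305 CPM, Tff1, a trefoil peptide that is secreted with mucus, from 6.21 to 202 CPM, Muc4 from 3.29 to 117 CPM and Pigr, the receptor that carries IgA across epithelium, from 12.3 to 141 CPM. Muc20 was at 1.03, 0.38 and 0 CPM at day 5 and 51.7, 18.8 and 30 at day 11, and its gene overlaps Muc4 on the opposite strand, and whether counting used the strand is not given in the sources used here. Cfb, complement factor B, rose in every culture but unevenly, with 42.1, 3.22 and 15.1 CPM at day 11, and lost its call with limma-voom (adjusted p over the alternatives 1.71e-28 to 0.0932). The calprotectin genes went down: S100a9 was at 296, 325 and 412 CPM at day 5 and 2.14, 8.04 and 5.22 at day 11 (log2 fold change of -5.94, SE 0.39, adjusted p = 2.99e-07) and S100a8 fell from 185 to 5.31 CPM. The secretoglobins Scgb1a1 and Scgb3a2, the protease inhibitor Slpi and Agr2 were also among the members that fell, Scgb3a2 from 46.3 to 4.45 CPM and Slpi from 962 to 152 CPM.

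Multiciliated cell genes rose, most of them after day 7. Of 64 tested genes 54 rose and 3 fell, and 35 of the 71 genes in the table had no counts in the 3 day 5 libraries together. Those of the 35 that were tested passed the filter on counts of days 7 and 11 alone. No fall could be called for them, so the share of rises in this list is raised by the filter. The median log2 fold change was 4.86, or 3.19 when genes absent at day 5 are set to their lower bound. Foxj1, the transcription factor that drives motile ciliogenesis, was at 0 CPM in all 3 libraries at day 5, 2.08, 2.65 and 0.257 at day 7 and 26.4, 24.9 and 12.1 at day 11 and was at least 64.6-fold higher at day 11. The coiled-coil protein gene Ccdc153 was at 0 CPM in all 3 libraries at day 5 and 10.6, 10.2 and 3.63 at day 11. The axonemal assembly factor gene Zmynd10 was at 0 CPM in all 3 libraries at day 5 and 10.2, 6.7 and 2.75 at day 11. Cfap206 was at 0 CPM in all 3 libraries at day 5 and 8.33, 7.51 and 3.57 at day 11, and these 3 genes were each lowest in mTG14 among the day 11 libraries. Gmnc, Mcidas and Ccno, which act upstream in the commitment to multiple cilia, reached 2.03, 5.15 and 8.9 CPM on average from 0, 0.227 and 0.558. The axonemal dyneins Dnah5 and Dnah9 came to 3.64 and 1.38 CPM from no counts. The sum of the list was 120.4, 105 and 126 CPM at day 5 and 402, 403 and 223 at day 11, and its day 5 level came largely from a few members such as Spef1, at 22.6 CPM on average, and Plk4. Plk4, which duplicates centrioles in dividing cells, fell from 25.4 to 5.17 CPM, and Mns1 and Trp73 were the other two that fell.

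Because these genes came up together, the 250 bases before the start of each gene's canonical transcript were searched for GTTGCC, the core of the sites bound by RFX factors, which serve ciliary genes, on either strand. It was found in 13 of 54 promoters of the list, 24.1%, against 9.6% of 13232 promoters of tested genes. The promoters of Foxj1 and Ccdc153 are shown as examples with a match, in capitals, read 5′ to 3′ on the gene's strand from GRCm39 with the GENCODE annotation.
Foxj1, chr11:116226226-116226475, minus strand: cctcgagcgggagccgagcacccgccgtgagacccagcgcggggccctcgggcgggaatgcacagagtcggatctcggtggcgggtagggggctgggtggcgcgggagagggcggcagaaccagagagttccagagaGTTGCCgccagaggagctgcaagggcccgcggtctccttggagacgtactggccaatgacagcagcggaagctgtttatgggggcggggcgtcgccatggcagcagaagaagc
Ccdc153, chr9:44151723-44151972, plus strand: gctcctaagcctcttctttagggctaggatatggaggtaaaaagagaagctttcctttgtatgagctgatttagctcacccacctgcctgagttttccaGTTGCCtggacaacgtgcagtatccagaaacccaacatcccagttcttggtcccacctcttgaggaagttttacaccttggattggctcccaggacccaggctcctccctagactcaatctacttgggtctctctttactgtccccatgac
A match describes the letters only.

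Among 11 tested thyroid follicular genes 5 rose and 2 fell, and 4 of these 7 are dual oxidases or their maturation factors. Duox2 makes the hydrogen peroxide used for iodination in thyroid and for defence at mucosal surfaces, and Duoxa2 is its maturation factor. The pair lies head to head, with Duox2 on chromosome 2 at 122109728 to 122128930, minus strand, and Duoxa2 on chromosome 2 at 122129380 to 122133366, plus strand. Duoxa2 was at 0.345, 0.38 and 0.285 CPM at day 5, 3.39, 4.24 and 3.86 at day 7 and 154, 106 and 149 at day 11. Duox2 was at 0.689, 0 and 0.855 CPM at day 5, 1.95, 3.18 and 1.29 at day 7 and 82.5, 42.6 and 67.8 at day 11 (log2 fold change of 6.92, SE 0.45, adjusted p = 3.07e-07). With 3 counts at day 5, the ratio of day 11 over day 5 was 412 (exact 95% interval 141 to 2000) for Duoxa2. The paralogs Duox1 and Duoxa1 moved the other way, Duox1 from 31.5 ± 3.76 to 8.71 ± 3.2 CPM and Duoxa1 from 42.9 ± 1.93 to 19.3 ± 4.73 CPM (SD, n = 3; log2 fold changes -1.70 and -1.01). Duoxa1 and Duoxa2 overlap on opposite strands, and their counts changed in opposite directions. Of the transcription factors, Nkx2-1 was at 14.5, 10.3 and 12 CPM at day 5 and 17.9, 17.2 and 21.2 at day 11 and rose by 0.75 on the log2 scale, a call lost with the fibroblast score as covariate. Foxe1 at 32.8, 38.6 and 43 CPM at day 5 and 30, 28.7 and 35.2 at day 11 overlapped (adjusted p = 0.574).

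**Figure D4:**
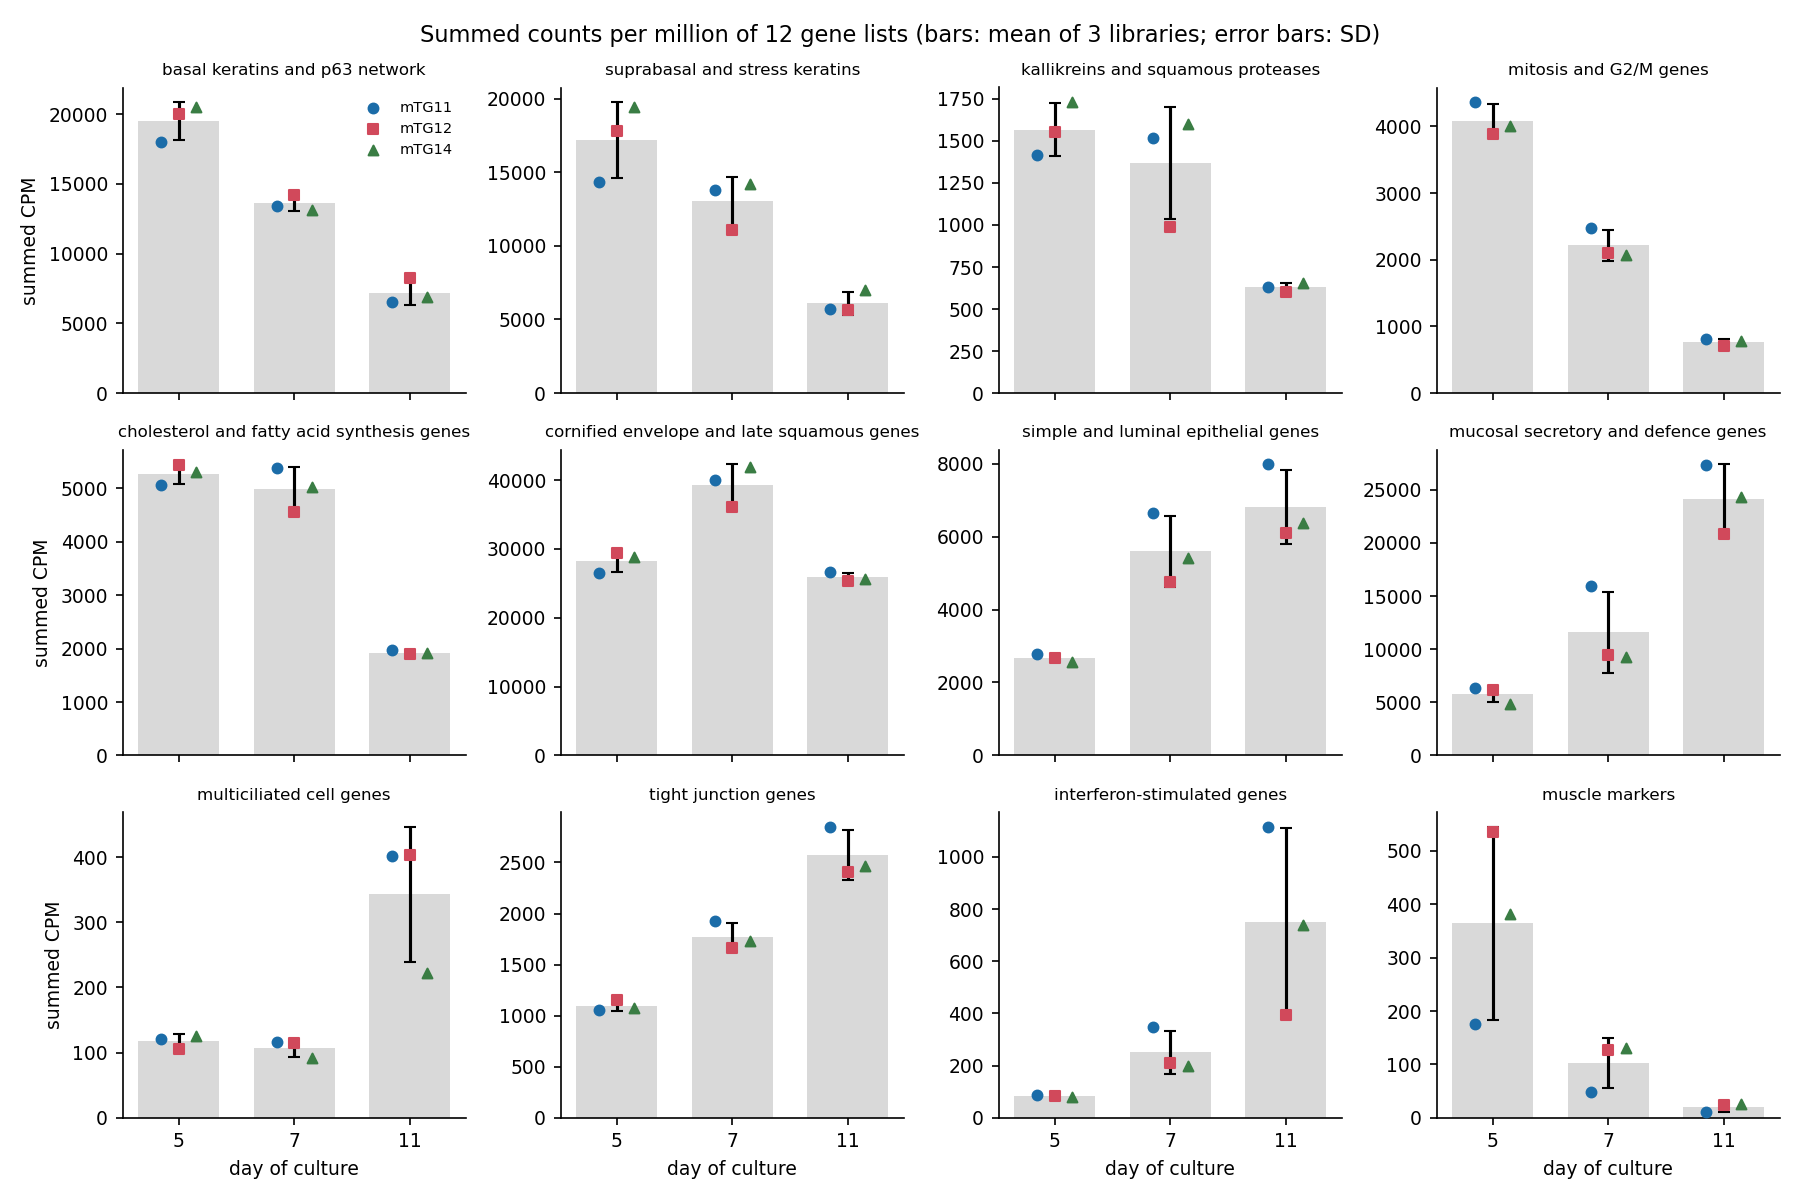
Summed CPM of 12 gene lists (y axis, from 0) by day of culture (x axis). Grey bars are the mean of 3 libraries, error bars the SD, and points the single libraries by culture. Basal, suprabasal, mitotic and sterol lists ended low at day 11, luminal, secretory, tight junction, ciliary and interferon lists high, and the cornified total peaked at day 7.

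Transcription factors of epithelial fate had no common direction. Among 61 tested 23 rose, 10 fell and 28 were not called, and the median log2 fold change was 0.20. Without TMM factors 16 fell, and without the day 11 library of mTG11 6 fell. Hopx was at 124, 127 and 126 CPM at day 5 and 638, 407 and 666 at day 11 (log2 fold change of 2.33, SE 0.24, adjusted p = 1.21e-05). Elf3, a factor of mucosal and glandular epithelium, was at 74.8, 82.5 and 54.5 CPM at day 5 and 276, 215 and 232 at day 11 (log2 fold change of 1.93, SE 0.16, adjusted p = 1.97e-06). Sox9, Foxa1 and Foxa2, which act in gland and airway epithelium, rose from 86.7 to 202 CPM, from 42.1 to 84 CPM and from 0.253 to 1.78 CPM. Sox7 and Ovol2 fell, Sox7 from 6.93 to 1.37 CPM. Klf4, a factor of barrier differentiation, was at 469, 383 and 449 CPM at day 5 and 486, 376 and 493 at day 11 and did not pass (adjusted p = 0.354).

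Ion and water transport genes rose in 16 of 31 tested and fell in 6. The water channel gene of glandular cells, Aqp5, was at 959, 392 and 784 CPM at day 5 and 2300, 1191 and 1936 at day 11 (log2 fold change of 1.49, SE 0.36, adjusted p = 0.00564), with mTG12 lowest on both days, and its call was lost with the fibroblast score as covariate. Aqp3, the water and glycerol channel of basal cells, fell from 1247 ± 90.3 to 640.1 ± 99.3 CPM (SD, n = 3; log2 fold change of -0.81, SE 0.15, adjusted p = 0.000886). The sodium-glucose cotransporter gene Slc5a1 rose from 8.21 to 63.7 CPM, the bicarbonate transporter Slc4a4 from 2.24 to 15.8 CPM and the potassium channel Kcnq1 from 0.507 to 7.4 CPM.

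The signalling lists had members called in both directions, and not all of them differed from the share of all genes, 21.3% higher and 20.1% lower. In the EGF list 9 of 23 rose (39.1%) and 4 fell (17.4%). Epgn, the ligand epigen, fell from 13.4, 30.4 and 22.2 to 0.952, 1.88 and 2.2 CPM, while Hbegf, another ligand, rose from 132 to 264 CPM and the feedback inhibitors Errfi1 and Dusp4 rose from 15.1 to 82.7 CPM and from 8.49 to 39.4 CPM. Of 42 tested genes of the Wnt, BMP and TGF-beta list 8 rose (19.0%) and 9 fell (21.4%), with a median of 0.01. These shares were close to those of all genes. The ligands Wnt4 and Wnt10a fell from 247 to 120.2 CPM and from 196 to 80.3 CPM, and Tgfb2 rose from 5.86 to 25.8 CPM. Notch genes gave 3 rises and 4 falls among 14 (21.4% and 28.6%, against 21.3% and 20.1% of all genes). Hes1, the common target, went from 196 to 101 CPM (called lower). Notch1 was at 164, 155 and 152 CPM at day 5 and 124, 167 and 144 at day 11 (adjusted p = 0.895). A single rise in the Notch list remained without TMM factors, with the fibroblast score, without the day 11 library of mTG11 and without the day 5 library of mTG12.

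Immediate early genes rose, and targets of YAP were divided. In the AP-1 list 12 of 20 rose and 0 fell. In 3 alternatives 1 fell, namely without TMM factors, without the day 11 library of mTG11 and with the replicate block, where it was Fosl1 (log2 fold change -0.64, adjusted p = 0.0292). Fosb, a subunit of AP-1, was at 3.45, 1.52 and 2 CPM at day 5, 25.3, 21.7 and 24.7 at day 7 and 79.8, 63.8 and 64.3 at day 11 (log2 fold change of 5.02, SE 0.21, adjusted p = 1.92e-08). Jun was at 74.5, 70.7 and 71.5 CPM at day 5 and 562, 458 and 381 at day 11 (log2 fold change of 2.83, SE 0.14, adjusted p = 6.52e-08). Atf3 rose from 3.89 to 43.2 CPM, while Ier3, an early response gene, was at 337, 302 and 309 CPM at day 5 and 266, 229 and 259 at day 11 (adjusted p = 0.243; called lower without TMM factors, log2 fold change -0.33, adjusted p = 0.0347, range over the alternatives 0.0347 to 0.538). Of 31 YAP and actin-linked targets 15 rose and 8 fell. The matricellular genes Ccn1 and Ccn2 rose by log2 fold changes of 3.10 and 2.74. Ccn1 was at 12.8, 22.4 and 14.5 CPM at day 5 and 147, 116 and 117 at day 11. Ccn2 was at 6.55, 10.3 and 22.9 CPM at day 5 and 66, 77 and 104 at day 11. Amotl2, which restrains YAP, rose from 24.7 to 104 CPM, and Tagln2, an actin-binding protein, fell from 976 to 390.4 CPM.

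Proliferation genes fell almost without exception. In the list of mitosis and G2/M genes 55 of 56 fell and 1 rose, Pttg1, the gene of securin, from 12.8 to 36 CPM. In the list of DNA replication and G1/S genes 48 of 50 fell and 0 rose, with 2 not called. Mki67, the marker of cycling cells, was at 299, 218 and 232 CPM at day 5, 130.1, 114 and 117 at day 7 and 24.2, 23.7 and 26.5 at day 11 (log2 fold change of -3.19, SE 0.14, adjusted p = 2.86e-08). Birc5, or survivin, was at 146, 145 and 133 CPM at day 5, 77.2, 68.2 and 68.5 at day 7 and 11.4, 9.25 and 10.3 at day 11 (log2 fold change of -3.62, SE 0.11, adjusted p = 2.44e-09). Of the S phase genes, Rrm2, a subunit of ribonucleotide reductase, was at 70.5, 72.2 and 77.5 CPM at day 5 and 5.95, 6.17 and 4.4 at day 11 (log2 fold change of -3.58, SE 0.13, adjusted p = 6.78e-09). E2f2 was at 17.6, 12.9 and 17.4 CPM at day 5 and 0, 0.804 and 0.962 at day 11. The sum of the mitotic list was 4364, 3892 and 3999 CPM at day 5 and 808, 705 and 778 at day 11, and that of the G1/S list 2172, 2148 and 2157 CPM at day 5 and 614, 604 and 602 at day 11. Day 7 was between days 5 and 11 for all 56 called genes of the mitotic list. Of 28 genes in a list of CDK inhibitors, D-type cyclins and growth arrest genes 15 rose and 7 fell. Txnip, which is induced by glucose and represses growth, was at 59, 45.6 and 53 CPM at day 5 and 288, 318 and 307 at day 11 (log2 fold change of 2.67, SE 0.15, adjusted p = 1.03e-07). Cdkn2b, an inhibitor of CDK4 and CDK6, rose from 26.4 ± 6.83 to 78.8 ± 4.88 CPM (SD, n = 3). The D-type cyclin gene Ccnd2, which drives the cycle and is one of the 15, rose from 1208 to 2106 CPM.

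The promoters of the mitotic genes were searched for TTTGAA, the cell cycle homology region, and CCAAT, the box bound by NF-Y, on either strand. TTTGAA was in 15 of 56 (26.8%, against 12.5% of all 13232) and CCAAT in 29 (51.8%, against 36.0%). Top2a, the topoisomerase of mitotic chromosomes, fell from 372 to 57.5 CPM, and Aurkb, the kinase of the chromosomal passenger complex, from 23.7 to 1.84 CPM. Their promoters hold both motifs, in capitals, and for Top2a the 229 of the 250 bases that lie outside the annotated gene are shown.
Top2a, chr11:98915063-98915291, minus strand: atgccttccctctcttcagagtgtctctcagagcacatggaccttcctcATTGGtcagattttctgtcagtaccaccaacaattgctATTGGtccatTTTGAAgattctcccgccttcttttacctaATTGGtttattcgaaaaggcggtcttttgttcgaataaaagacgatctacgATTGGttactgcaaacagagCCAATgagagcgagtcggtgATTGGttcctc
Aurkb, chr11:68936217-68936466, plus strand: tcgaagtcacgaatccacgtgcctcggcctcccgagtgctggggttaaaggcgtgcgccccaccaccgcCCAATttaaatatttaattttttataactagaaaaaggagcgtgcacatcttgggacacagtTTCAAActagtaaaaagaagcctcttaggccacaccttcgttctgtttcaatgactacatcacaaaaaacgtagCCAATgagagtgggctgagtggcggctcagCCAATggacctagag

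Genes of biosynthesis fell as well. Of 48 genes in a list of ribosome biogenesis and MYC target genes 44 fell and 0 rose, with a median log2 fold change of -0.70. Nme1, a nucleoside diphosphate kinase, was at 265, 290.4 and 261 CPM at day 5, 92.5, 95.7 and 101 at day 7 and 56.2, 64.9 and 63.1 at day 11 (adjusted p = 4.56e-08). Odc1, the key enzyme of polyamine synthesis, fell from 189.9, 158 and 157 to 43.8, 41.3 and 40.5 CPM at day 7 and was at 32.2, 46.2 and 33.8 at day 11. In this list 24 of the called genes were lower at day 7 than at day 11. Ribosomal protein genes depended on the scaling: 26 rose and 8 fell of 77, but without TMM factors 10 rose and 20 fell, and without the day 5 library of mTG12 17 rose. Rps2 fell by a log2 fold change of -0.84 and Rps27 rose by 0.79. Nuclear genes of the respiratory chain fell in 37 of 48, for example Cox5b from 231 ± 10.6 to 77.5 ± 7.55 CPM (SD, n = 3), while of the 13 mitochondrially encoded genes 8 rose and 1 fell, with COX1 at 1348, 1296 and 1465 CPM at day 5 and 3499, 3835 and 3791 at day 11 (log2 fold change of 1.58, SE 0.09, adjusted p = 1e-07).

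Sterol and fatty acid synthesis fell late. Of 41 tested genes 32 fell and 1 rose, with a median log2 fold change of -1.35, and the sum of the list was 5065, 5428 and 5296 CPM at day 5, 5375, 4563 and 5033 at day 7 and 1975, 1892 and 1913 at day 11. The groups of days 5 and 7 overlapped in this sum and day 11 lay far below. Hmgcs1, which makes the precursor of mevalonate, was at 328, 337 and 342 CPM at day 5, 304, 270.1 and 294 at day 7 and 64.8, 74.9 and 78.5 at day 11 (log2 fold change of -2.06, SE 0.10, adjusted p = 3.93e-08). Fdps, farnesyl diphosphate synthase, followed with 209, 217 and 219 CPM at day 5, 211, 196 and 216 at day 7 and 35.6, 33.2 and 29.9 at day 11 (log2 fold change of -2.56, SE 0.09, adjusted p = 6.46e-09). Elovl4, the elongase of the very long fatty acids used in the skin barrier, had the largest fall of the list, from 92 ± 22.6 to 3.92 ± 1.82 CPM (SD, n = 3; log2 fold change of -4.41, SE 0.28, adjusted p = 2.67e-07). The motif TCACNCCAC, the core of the sterol regulatory element, was on either strand of 4 of 41 promoters of this list (9.76%) and of 1.04% of all, and is shown in capitals for Hmgcs1, in the 183 of its 250 bases that lie outside the annotated gene.
Hmgcs1, chr13:120151732-120151914, plus strand: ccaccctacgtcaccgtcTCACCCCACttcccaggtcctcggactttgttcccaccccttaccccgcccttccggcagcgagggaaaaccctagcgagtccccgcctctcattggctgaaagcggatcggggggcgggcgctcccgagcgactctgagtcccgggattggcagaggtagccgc

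Glycolysis and hypoxia genes had no common direction at day 11, with 12 of 37 higher and 11 lower and a median of 0.08. The enzymes Ldha and Pkm fell by log2 fold changes of -1.21 and -1.20, whereas the hypoxia-inducible genes Egln3, a prolyl hydroxylase of HIF, and Ero1a, an ER oxidase, rose. Egln3 was at 23.1, 24.4 and 29.4 CPM at day 5, 308, 246 and 351 at day 7 and 158, 180.4 and 158 at day 11 and was highest at day 7 in every culture. Car9, a carbonic anhydrase, had the same order in its means, 1.09, 13.8 and 10.6 CPM. Among 55 genes of glutathione and xenobiotic metabolism 18 rose and 16 fell. Gsto1, an omega-class glutathione transferase, was at 3478, 4561 and 3368 CPM at day 5, 6944, 5822 and 6503 at day 7 and 18089, 13287 and 16338 at day 11 (log2 fold change of 2.21, SE 0.14, adjusted p = 2.48e-07). The alpha-class transferases Gsta1 and Gsta2, which share reads, fell from 153 to 9.1 CPM and from 22.6 to 3.81 CPM. Of 28 genes of the ATF4 response 17 rose and 6 fell, with Atf4 itself from 242 ± 10.4 to 474 ± 25.3 CPM (SD, n = 3) and its target Trib3 from 9.51 ± 2 to 48.5 ± 8.85 CPM (SD, n = 3), and of 38 genes of ER folding and secretion 11 rose and 14 fell, 9 with the fibroblast score as covariate. In that list the ER chaperone Calr fell from 827 to 551 CPM and Galnt6, which starts mucin O-glycans, rose from 13.3 to 47.9 CPM.

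Interferon-stimulated genes rose in 29 of 31 tested and fell in 0, with a median log2 fold change of 4.17, or 3.76 with genes absent at day 5 at their bound. Their sum was 88.9, 81.9 and 78 CPM at day 5, 347, 208 and 200.3 at day 7 and 1115, 394 and 740.4 at day 11, and the cultures differed by over 2-fold at day 11, with mTG11 highest and mTG12 lowest. Irf7, the transcription factor that amplifies the response, was at 0.689, 1.9 and 0.855 CPM at day 5, 16.4, 7.42 and 6.43 at day 7 and 94.3, 31.1 and 76.7 at day 11 (log2 fold change of 6.03, SE 0.60, adjusted p = 7.85e-06). Ifit1, an RNA-binding effector, was at 1.85, 1.44 and 1.78 CPM at day 5 and 153, 30.6 and 81.7 at day 11. Oasl1 was at 0.345, 2.28 and 0.285 CPM at day 5 and 83.8, 24.9 and 55.5 at day 11, in the same order of cultures. Ifit3, whose copy is Ifit3b, stood at 0, 0 and 0.285 CPM at day 5 and 29.4, 10.2 and 14.2 at day 11. Ifit3b was at 0 CPM in all 3 libraries at day 5 and 28.7, 8.31 and 16.4 at day 11. Antigen presentation genes rose in 14 of 19 tested and fell in 0: the immunoproteasome subunit Psmb8 rose from 2.53 to 27.3 CPM and B2m, the light chain of MHC class I, from 75.4 ± 11.7 to 235 ± 63.5 CPM (SD, n = 3; log2 fold change of 1.79, SE 0.19, adjusted p = 1.23e-05). In the chemokine and cytokine list 17 of 31 rose and 3 fell. Il1a, an alarmin of epithelia, was at 1.03, 4.94 and 3.14 CPM at day 5 and 56, 52.5 and 62.7 at day 11 (log2 fold change of 4.38, SE 0.31, adjusted p = 5.07e-07). Ccl2, which attracts monocytes, fell from 33.5 ± 17.1 to 3.02 ± 1.62 CPM (SD, n = 3).

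The core of the interferon-stimulated response element, GAAA repeated after a gap of 2 bases, was present on either strand in 9 of 30 promoters of interferon-stimulated genes, 30.0%, and in 2.97% of all 13232. The promoters of the neighbouring copies Ifit3 and Ifit3b hold it in 2 places each, on the strand opposite to the gene, so that the letters shown are its reverse complement.
Ifit3, chr19:34560649-34560898, plus strand: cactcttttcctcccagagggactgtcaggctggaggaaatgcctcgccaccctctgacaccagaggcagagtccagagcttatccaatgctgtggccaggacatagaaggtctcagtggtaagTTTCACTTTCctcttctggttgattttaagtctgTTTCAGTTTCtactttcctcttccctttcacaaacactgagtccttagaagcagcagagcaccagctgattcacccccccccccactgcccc
Ifit3b, chr19:34585078-34585327, plus strand: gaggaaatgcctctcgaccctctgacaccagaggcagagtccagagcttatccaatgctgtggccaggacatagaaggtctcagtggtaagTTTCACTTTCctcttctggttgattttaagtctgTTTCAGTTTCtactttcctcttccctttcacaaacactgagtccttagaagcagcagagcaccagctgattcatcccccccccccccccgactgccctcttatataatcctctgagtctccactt

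Markers of other cell types moved with the days as well. Among 8 muscle markers 7 fell and 0 rose, and their sum was 176, 536 and 381 CPM at day 5, 48.8, 128 and 131 at day 7 and 10.2, 23.8 and 25.2 at day 11, highest in mTG12 at day 5. Desmin (Des) was at 31, 115 and 72.7 CPM at day 5, 9.38, 28.9 and 31.6 at day 7 and 0.476, 4.29 and 4.4 at day 11. The fast myosin gene Myh1 was at 27.3, 77.1 and 53.8 CPM at day 5, 10.3, 19 and 17.1 at day 7 and 0, 1.14 and 1.93 at day 11. Of 15 tested fibroblast markers 8 fell and 0 rose, with a summed level of 136, 239 and 246 CPM at day 5 and 92.8, 173 and 174 at day 11, so that the groups overlapped. Only 2 to 5 members fell when mTG11, mTG12 or mTG14 was left out at day 11 or mTG12 or mTG14 at day 5, 1 fell with the fibroblast score as covariate, and Postn rose with the replicate block. Col1a1 was at 10.7, 45.2 and 27.6 CPM at day 5 and 1.67, 10.7 and 4.4 at day 11. Col1a2 was at 11, 41.8 and 35.6 CPM at day 5 and 0.714, 11.3 and 5.5 at day 11, and both were lowest in mTG11 on each day and lost their calls with the fibroblast score as covariate. The score was built from these same fibroblast markers, so the loss of their calls under it was largely built in and is no separate result. In the EMT and mesenchymal list 11 of 21 fell and 3 rose. Vim was at 16.6, 47.1 and 80.1 CPM at day 5, 8.34, 15.1 and 52.2 at day 7 and 2.38, 8.85 and 5.5 at day 11 (log2 fold change of -2.99, SE 0.74, adjusted p = 0.00646). Its call was lost with the fibroblast score as covariate (log2 fold change -1.0, adjusted p = 0.134, with 3.93e-28 to 0.134 over the alternatives). S100a4 was at 101, 120.5 and 108 CPM at day 5 and 12.4, 14.2 and 12.4 at day 11 (log2 fold change of -2.93, SE 0.11, adjusted p = 8.7e-09). With the fibroblast score as covariate 3 members of that list fell and 6 rose, with DESeq2 7 fell, and leaving out 1 library gave as few as 5. Adipocyte markers were carried by Fabp4, and endothelial, C cell, parathyroid, thymic and chondrocyte markers summed to at most 18.8 CPM per list in any library of either day. Of the leukocyte markers Cd68 and Laptm5 rose, from 6.29 to 44.8 CPM and from 1.25 to 7.67 CPM, while Ptprc had no counts and the other 7, Cd3e, Csf1r and Adgre1 among them, were at or below 0.76 CPM on average. With the fibroblast score as covariate Laptm5 was not called (log2 fold change 1.19, adjusted p = 0.18, with 8.12e-09 to 0.18 over the alternatives). The part of these cells in the epithelial changes was not tested. With the fibroblast score as covariate 3050 genes were higher and 2798 lower. The score itself went down with the days, from -0.22, 0.87 and 0.69 at day 5 to -1.11, -0.25 and -0.39 at day 11. A call lost or kept under it therefore cannot separate fibroblast content from time in culture.

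Some abundant RNAs also differed. The nuclear RNA Malat1 was at 1698, 1592 and 1137 CPM at day 5, 4227, 2940 and 2641 at day 7 and 13681, 6276 and 9479 at day 11 (log2 fold change of 2.88, SE 0.27, adjusted p = 4.09e-06), and the mitochondrial ribosomal RNAs mt-Rnr1 and mt-Rnr2 rose by log2 fold changes of 1.60 and 1.32. The nuclear ribosomal RNA gene Rn18s-rs5 varied between 44280 and 92430 CPM over the 9 libraries and overlapped between days (adjusted p = 0.652). Leaving out ribosomal protein, mitochondrially encoded, rRNA and snRNA genes before scaling gave 3654 higher and 3739 lower genes, and the part of Malat1 was not tested.

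Day 7 lay between the compared days for most changes. Of the genes called higher, 74.6% had a day 7 mean between those of days 5 and 11 on the log2(CPM + 1) scale, and of those called lower 84.2%. The lists did not keep the same pace. The median change from day 5 was 1.41 at day 7 and 2.43 at day 11 for interferon-stimulated genes, and 0.99 and 1.30 for luminal genes. For multiciliated genes it was 0.11 and then 1.70, and for sterol and fatty acid synthesis -0.17 and then -1.48, so that these lists changed mainly after day 7. The list of ribosome biogenesis and MYC target genes had its full change of -0.96 by day 7, against -0.84 at day 11. No test was made of these differences in pace.

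**Figure D5:**
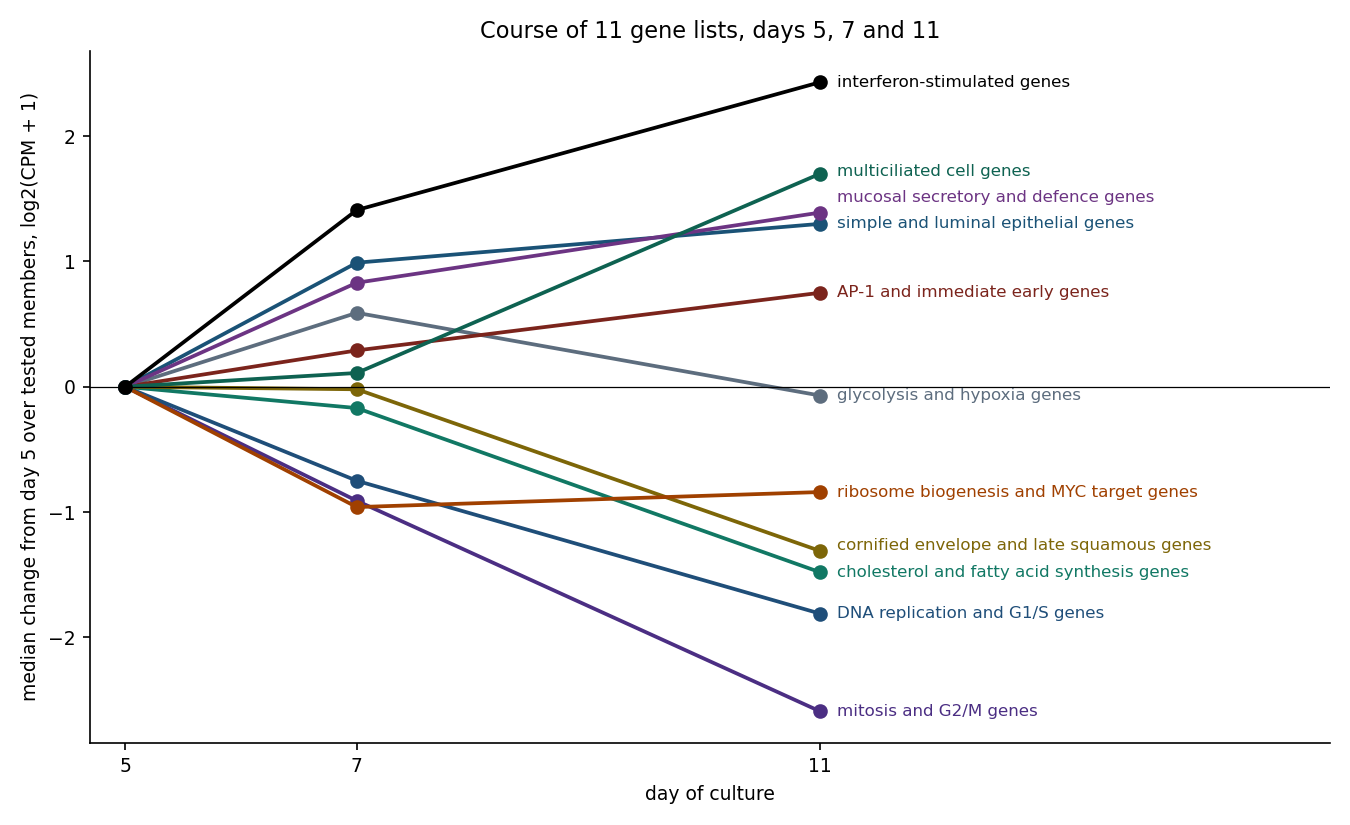
Median change from day 5 over the tested members of 11 gene lists, in log2(CPM + 1) (y axis), at days 5, 7 and 11 (x axis). Ribosome biogenesis and MYC target genes reached their lowest point at day 7, glycolysis and hypoxia genes their highest, and the ciliary, cornified and sterol lists changed mainly between days 7 and 11.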

How the data were processed

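Expression was measured in 27 libraries of mouse thyroid gland organoids in 9 groups of 3, of which the 3 non-irradiated groups of days 5, 7 and 11 were used here. Smart3SEQ, which reads the 3′ ends of transcripts, was used for the libraries per the labels. The deposited values are estimated counts per gene from the authors, of which 56.61% of those above 0 were whole numbers, on the GRCm39 build, and the submitters' processing notes name STAR and edgeR without a role. Reads that fit several genes can therefore be shared between them, and antisense or overlapping genes may share reads. The table held 50559 genes, 20500 of them with no count in the 9 libraries, and no column without a sample.

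The estimated counts were rounded and tested with edgeR 4.0.16 in R 4.3.3 (quasi-likelihood test, TMM scaling, genes whose counts over the 9 libraries came to 10 or more, 1 mean per day, Benjamini-Hochberg adjustment, threshold 0.05), although whole counts had been planned for. Libraries of 1 culture deviated together from their group means, with correlations of 0.122 to 0.299 (9 pairs). Pairs of different cultures gave -0.222 to -0.025 (18 pairs). Deviations from a mean of 3 libraries sum to 0 at each day, so on average these negative values follow from the positive ones and are no separate contrast. Because of the positive correlations, the culture in the column name was used as replicate block in an alternative. No replicate pair agreed within sampling noise. In simulated counts of 18442 genes for day 11 against day 5, 80.5% of 200 genes changed by 1 on the log2 scale were recovered, with 3.01% false among the calls. The changed genes had a mean of at least 10 counts and went up and down in equal number, and libraries were drawn independently. The real fit called 7621 genes in libraries that deviated together by culture, so these shares are not known to hold for it. Alternatives were DESeq2 1.42.0, limma-voom 3.58.1, other scalings and filters, thinning to 2630182 counts, leaving out the 1613 genes used as abundant RNA, a fibroblast covariate, the block and leaving out each library. Floors and intervals cover counting error only. For a gene with no counts at one day, 3 counts over the group's summed total were used.

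The rule for named genes took the 15 largest rises and falls with at least 10 CPM at the higher day and no overlap. Predicted gene models, with Gm, LOC, Rik and similar symbols, were left out of these. The rule also took up to 4 called members with at least 5 CPM and the 2 highest members of each of 44 lists (1166 genes tested). The 10 highest genes of each day, a short list of markers, and genes with a day 7 extreme completed the rule. Genes named beyond this rule, such as Krt15, Lor, Krtdap, Spink5, Tff1, Msln, Muc4, Gmnc, Mcidas, Ccno, Sox9, Foxa1, Foxa2 and Postn, were chosen after their values were seen. The members and lists were chosen with earlier results of these data known. Promoters were the 250 bases before the start of a gene's canonical GENCODE transcript, from GRCm39, printed as far as they lie outside the annotated gene. That annotation held 79.7% of the deposited symbols.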

Additional observations from a re-analysis of the deposited data

How the results depend on the processing

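The counts of genes changed stayed within 1.5 times of 3921 higher and 3700 lower under all 18 alternatives, and none of the 229 named genes called, of 255 named genes tested, changed direction in any of them. Of these, 205 were called under every alternative and 214 when any single library was left out, with 3312 to 3478 higher and 3143 to 3391 lower genes in those fits. With culture as replicate block there were 4177 higher and 3872 lower genes, 7496 of the calls being shared, and no named call was lost. Among the named genes tested the block added the calls of Tg and Itgb4, given above, and of Slc16a3 (log2 fold change 0.80, adjusted p = 0.00254), Phlda1 (0.29, adjusted p = 0.0304), Calcb (-1.03, adjusted p = 0.0273) and Pth (-3.48, adjusted p = 0.0242), and changed no other call among them. DESeq2 gave 2971 and 3010, with 4 named calls lost, RLE factors 3839 and 3788, limma-voom 3876 and 3714, no filter 4080 and 3747, at least 10 counts in 3 libraries 3528 and 3495, days 5 and 11 alone 3769 and 3732, unrounded counts 3919 and 3767 and equal totals by thinning 3601 and 3430. Without TMM factors 3 named calls were lost and 39.9% of the calls were higher, against 51.4%. With the fibroblast score 20 named calls were lost, among them those of Col1a1, Col1a2 and Col3a1, which are part of the score. Under it 5 ribosomal protein genes, 1 chemokine or cytokine and 0 tight junction genes were lower, against 8, 3 and 1. Without the day 5 library of mTG14 0 tight junction genes were lower. Without the day 11 library of mTG11 1 chemokine or cytokine was lower. The cause of these differences was not tested. A library of 2630564 to 4200268 counts leaves genes near 1 CPM with few counts, so that members below the filter, 7 of the multiciliated list among them, could not be tested.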

Other observations

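Some genes left the range of days 5 and 11 at day 7, without a test. Ndufa4l2, a hypoxia-induced mitochondrial protein, was at 22.9, 39.2 and 50.6 CPM at day 5, 432, 552 and 513 at day 7 and 50.6, 107 and 51.7 at day 11. Slc16a3, the lactate exporter MCT4, was at 5.51, 16 and 13.7 CPM at day 5, 67.2, 104 and 88.3 at day 7 and 14.3, 23.9 and 16.8 at day 11, and Nxph4, a secreted neurexin ligand, at 0.345, 0.76 and 1.14 CPM at day 5, 9.12, 10.1 and 11.8 at day 7 and 0.238, 1.07 and 0.825 at day 11. In all of them each day 7 library lay above every library of the other days. In the opposite direction, Cryab, a small heat shock protein, was at 15.5, 35 and 33.1 CPM at day 5, 4.43, 6.89 and 12.9 at day 7 and 21.9, 30 and 29.4 at day 11, and Ereg, the EGF family ligand epiregulin, at 31.7, 54 and 32.8 CPM at day 5, 19, 19.6 and 20.6 at day 7 and 29.5, 45.6 and 41.8 at day 11, so that day 7 was below both for each. Ovol1, a transcription factor of epidermal differentiation, was at 16.2, 20.5 and 24.5 CPM at day 5, 5.73, 5.3 and 8.23 at day 7 and 17.4, 9.65 and 15.7 at day 11.

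The cultures also differed among themselves. Muscle markers, fibroblast collagens and Krt14 had their lowest day 11 values in mTG11, which also held the highest day 11 values of Krt7, Krt23, Muc1 and of the interferon-stimulated sum. Vim was at 16.6 CPM in mTG11 and 80.1 in mTG14 at day 5. With 1 library per culture and day these differences have no test.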
